A study of Homo sapiens with 7 samples.

Results

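The comparison described here is between the control transfections of a deadenylase silencing study, an array of cells given a non-target short hairpin RNA (shRNA) and an array of cells given the empty plasmid. The features compared are the gene probes that were well above background on both arrays and whose mean signal lay above the median of all such probes. Of the 42405 gene probes on the array, 34688 were above background on both arrays and 17344 were also above that median. Of these member probes 13705 could be named, and they represent 11057 of the 19063 gene symbols named on the array. The limit was a mean level of -2.70 on the log2 scale, where a level is the log2 signal minus the 75th percentile of its array. Just inside the limit (within 0.05 log2) 192 probes had a standard deviation (SD) of the difference of 0.52, and just outside it 177 probes had one of 0.56.

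All samples were NCI-H520 cells, a long-established human line of squamous lung cancer. Each of the 7 arrays was a group of its own. Beside both controls there was 1 array each for shRNAs that, by the titles, target PARN, CNOT6, CNOT6L, CNOT7 and NOC, enzymes that shorten the poly(A) tail of mRNA. Per the labels, every culture received 6 µg of pLKO.1 plasmid in cationic liposomes, puromycin at 6 µg/mL from 12 h after transfection, and was harvested at 72 h. The empty vector is the same plasmid backbone with no hairpin, and the non-target plasmid expresses a hairpin that matches no known gene. The groups compared therefore share the plasmid backbone, the liposomes and the puromycin selection, and differ by whether a hairpin was made. Untransfected cells were not analysed here, so a response to transfection itself cannot be seen in these arrays. The comparison asks what differs between cells that make an shRNA with no target and cells that make none. The label gives no number of cultures behind an array, and with 1 array on each side no difference between them has a replicate check.

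An shRNA is transcribed in the nucleus, exported, cut by DICER1 to a short duplex and loaded into an AGO protein, which it guides to complementary mRNAs. A non-target shRNA occupies this machinery without an intended mRNA to cleave. Mammalian cells can also sense double-stranded RNA through RIG-I-like receptors, PKR and the OAS enzymes, and the classical output of that sensing is the induction of interferon-stimulated genes through factors such as STAT2 and IRF9. For these reasons the genes of RNA interference, RNA sensing and the interferon response are described first among the gene groups.

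The promoters of interferon-stimulated genes carry the interferon-stimulated response element, to which IRF9 binds together with STAT2. The promoters of IFIT1 and MX1, which were higher on the non-target array, and of IFITM3, which was lower, are shown to let the element be seen beside the values. They run from 250 bases before to 50 bases after the transcription start in RefSeq (GRCh38.p14), and capitals mark each place where GAAA, any 2 bases and again GAAA follow each other, or TTTC, any 2 bases and TTTC for the other strand, with overlapping matches allowed. IFIT1 lies at chr10:89392373-89392672 on the plus strand, MX1 at chr21:41420308-41420607 on the plus strand and IFITM3 at chr11:320811-321110 on the minus strand.
IFIT1: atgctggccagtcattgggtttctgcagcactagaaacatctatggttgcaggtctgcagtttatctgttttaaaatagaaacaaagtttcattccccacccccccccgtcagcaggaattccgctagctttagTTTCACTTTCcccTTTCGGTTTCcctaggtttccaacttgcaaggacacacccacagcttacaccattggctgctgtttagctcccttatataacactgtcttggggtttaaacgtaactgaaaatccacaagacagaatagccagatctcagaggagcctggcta
MX1: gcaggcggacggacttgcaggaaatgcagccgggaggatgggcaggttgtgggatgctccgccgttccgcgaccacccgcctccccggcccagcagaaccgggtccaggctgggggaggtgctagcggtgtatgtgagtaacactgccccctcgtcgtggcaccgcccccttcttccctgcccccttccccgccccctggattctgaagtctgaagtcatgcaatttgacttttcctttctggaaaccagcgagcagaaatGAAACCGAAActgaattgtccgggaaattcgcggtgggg
IFITM3: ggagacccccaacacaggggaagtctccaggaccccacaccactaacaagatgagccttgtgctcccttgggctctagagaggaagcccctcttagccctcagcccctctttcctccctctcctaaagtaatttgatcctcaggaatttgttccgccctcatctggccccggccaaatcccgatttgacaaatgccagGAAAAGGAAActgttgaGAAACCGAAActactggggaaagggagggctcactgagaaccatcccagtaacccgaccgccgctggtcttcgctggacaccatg
The motif was found in 1255 of 35116 promoters of the same length (3.57%). Of the 35 interferon-stimulated genes with a member probe, 28 had a promoter in the table and 15 of these held a match. Their median difference between the arrays was 0.12 log2, with 10 of 15 higher on the non-target array. The 13 genes without a match had a median of 0.26, with 11 of 13 higher. The genes with the largest differences among these 28, IFIT1 and MX1, held a match, and the highest gene without one was UBE2L6 at 0.64. IFIT2 had no entry in the table. A match is a description of the sequence only.

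Most member probes had nearly the same level on both arrays. The difference, always given as non-target minus empty vector, had a median of 0.03 log2 and an SD of 0.43 over the members, and 88.9% of the members were within 1.5-fold. At 2-fold, 82 probes (0.473%) were higher on the non-target array and 520 (3.0%) were lower. These were 42 and 223 gene symbols, each counted if any of its member probes passed. Of 2268 genes with several member probes, 43 had any probe past 2-fold. All probes had 1 sign in 26 of these 43. Every probe was 2-fold lower in 4 of them and 2-fold higher in 0. At 4-fold the counts were 13 and 50. Of all 2-fold differences 13.6% were therefore in the higher direction. With no scaling between the arrays this share was 1.79% (29 higher and 1590 lower), because the non-target array was dimmer and every difference then shifts by -0.49 log2. With quantile normalization of the 7 arrays it was 16.9% (94 and 463). Of the lower probes, 179 had a level on the non-target array under the limit for members and were kept through their level on the empty-vector array, and 341 were over the limit on both. For the higher probes, 20 had a level on the empty-vector array under the limit and 62 were over it on both.

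**Figure D1:**
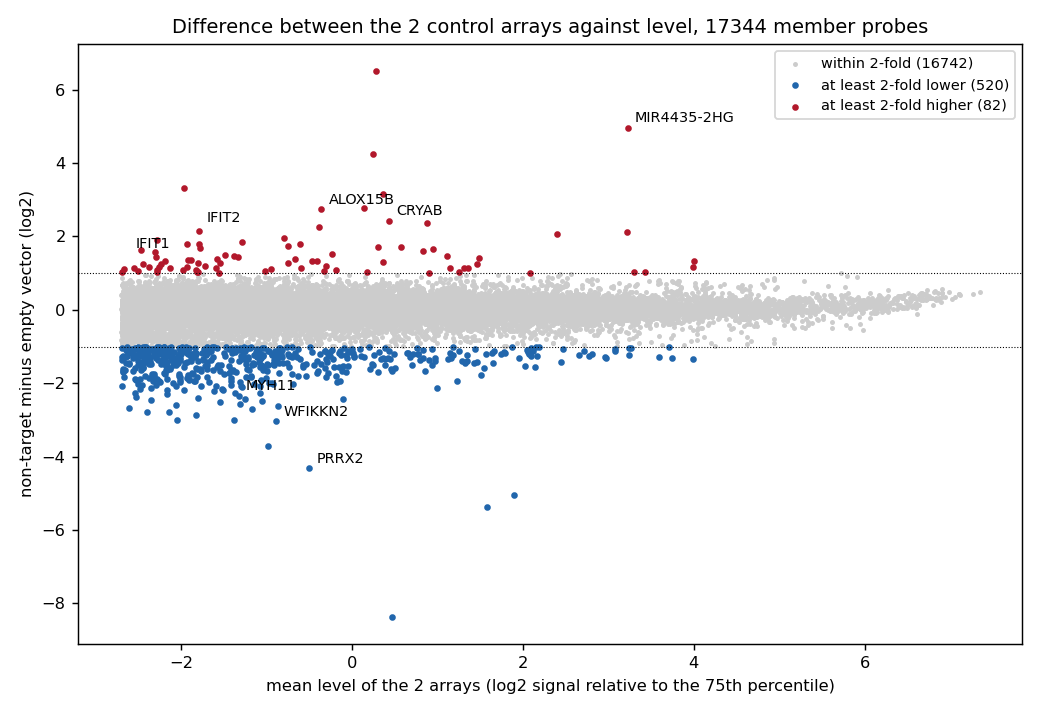
Difference between the non-target and the empty-vector array (log2, y axis) against the mean level of both (log2 signal relative to the 75th percentile of each array, x axis) for the 17344 member probes. The 520 probes at least 2-fold lower outnumber the 82 at least 2-fold higher and lie mostly at the dim end.

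The printing error within an array was far smaller than these differences. Among the 4222 members printed on 2 spots, the median SD between the spots of a probe was 0.05 log2 on each array. Of the 602 probes past 2-fold, 95 were printed on several spots, and for 94 of these the spots of both arrays did not overlap. The other 507 rested on 1 spot per array. With so small a spot SD, probes chosen at 2-fold can hardly overlap, so the 94 are given as a description. The 633 members printed on 10 spots included 0 that were 2-fold higher and 8 that were 2-fold lower. Over all members the shares were 0.473% higher and 3.0% lower. Spots of 1 array share its RNA, so they show the error of printing and not that between cultures.

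The array of all 7 that stood apart differed from probe to probe. Of the 520 lower probes, the non-target array was the lowest of the 7 arrays for 335 (64.4%) and the empty-vector array the highest for 345 (66.3%). Both held for 190 (36.5%), so that all 5 deadenylase shRNA arrays lay between. Over all members, the non-target array was the lowest for 17% and the empty-vector array the highest for 11.3%. Of the 82 higher probes, the non-target array was the highest of 7 for 56 (68.3%) and the empty-vector array the lowest for 36 (43.9%), against 17.3% and 12.8% of all members. The 2-fold choice itself favours these extremes, and the shares are given as a description.

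**Figure D2:**
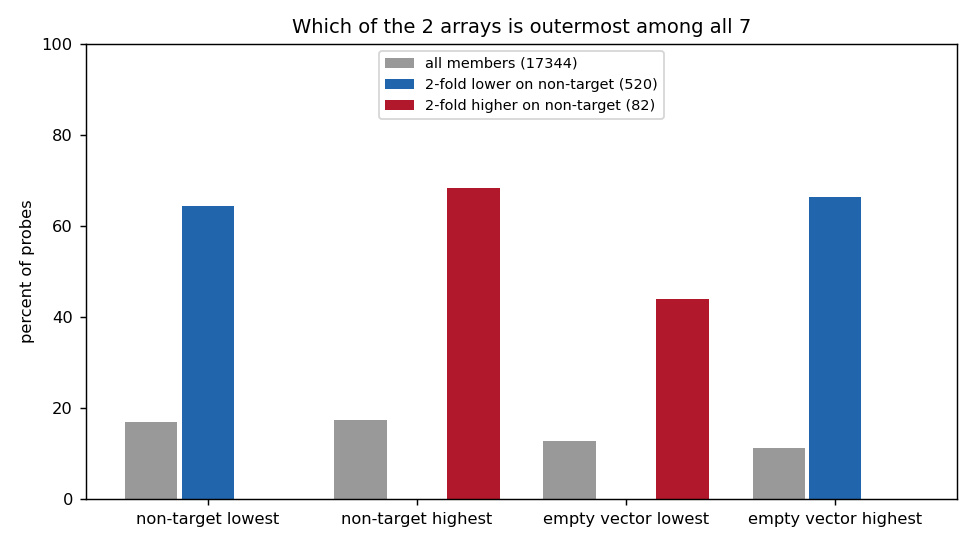
Percent of probes (y axis) for which the non-target or the empty-vector array had the lowest or the highest level of all 7 arrays, for all members, the 520 lower and the 82 higher probes. Among the lower probes, the non-target array was lowest (64.4%) about as often as the empty-vector array was highest (66.3%).

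The other hairpin arrays did not fall on one side. For the lower probes, the CNOT6L, CNOT7 and NOC shRNA arrays were nearer to the non-target than to the empty-vector array for 72.3%, 66.5% and 71.0% of the 520. The PARN and CNOT6 shRNA arrays were nearer to it for 14% and 33.7%. Over all 17344 members the shares were 53.3%, 49.5% and 53.1% for CNOT6L, CNOT7 and NOC and 33.0% and 42.2% for PARN and CNOT6 shRNA, so that a split in the same order was there over all members. The first group lay in row 2 of the slide, whereas PARN and CNOT6 shRNA lay in row 1 together with both controls. For the 82 higher probes the CNOT6 shRNA array was the closest, nearer to the non-target array for 70.7%, while the other arrays ranged from 12.2% to 37.8%. For the lower probes the row thus went with nearness to the non-target array, and for the higher probes it did not. Its part was not tested. Both controls lay in row 1, so the difference between them was within a row.

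Among the 12 lowest named genes the split between the other hairpin arrays did not hold for every gene. All 5 deadenylase shRNA arrays were nearer to the non-target array for PRRX2 and to the empty-vector array for MYH11. WFIKKN2, a secreted protein with protease inhibitor domains, had a level of 0.63 with the empty vector and -2.41 with the non-target shRNA, an 8.19-fold lower signal, and the 5 deadenylase shRNA arrays ranged from -0.94 to 0.66. SNX31, a sorting nexin, had levels of -0.55 and -3.55 and was 8.04-fold lower, and the other arrays ranged from -3.02 to -0.79. HRG, a plasma glycoprotein of the liver, was measured on 2 spots per array and had levels of 0.06 and -2.20. In these genes the non-target array was the lowest of the 7, and the highest of the other arrays came near or above the empty-vector level. C20orf173 (8.06-fold), GARIN1B (6.54-fold), ADAM20, a metalloprotease of the testis (5.66-fold), EVPLL, an envoplakin-like protein (5.90-fold), and PCDHA3, a protocadherin of the alpha cluster (6.38-fold), were also lower with the non-target array lowest of all. PCDHA3 shares its last exons with the other genes of the cluster, so signal on its probe is uncertain. DAND5, an antagonist of nodal and BMP signals, had levels of 1.11 and -1.31, and C17orf99, which encodes the cytokine interleukin 40, had levels of -1.12 and -3.59. For both, the CNOT6L shRNA array was lower still.

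The 12 highest named genes were led by MIR4435-2HG, a long noncoding RNA. Its level was 0.75 with the empty vector and 5.71 with the non-target shRNA, a 31.1-fold higher signal, while the 5 other arrays ranged from 0.32 to 1.04. This probe was printed on 1 spot, so that 1 spot on 1 array carries the value. ALOX15B, an arachidonate lipoxygenase, had levels of -1.73 and 1.01 (6.69-fold higher), and its spots ranged from -1.80 to -1.66 and from 0.86 to 1.16. ALOX15B was also high on the CNOT6 shRNA array, at 0.58, and was -1.10 on the PARN shRNA array and from -3.05 to -2.75 on the rest. CRYAB, a small heat shock protein, had levels of -0.78 and 1.65 (5.37-fold higher). It was at 1.96 on the CNOT6L, 1.48 on the NOC and 0.74 on the CNOT7 shRNA array, but at -0.25 on the CNOT6 and -0.83 on the PARN shRNA array, so CRYAB was not particular to the non-target hairpin and was not higher with every hairpin.

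NPB, the precursor of neuropeptide B, OSCAR, an immunoglobulin-like receptor of osteoclasts, and MIR22HG, the host transcript of miR-22, behaved like ALOX15B. MIR22HG had levels of 0.78 and 2.20 on the empty-vector and non-target arrays, 1.90 on the CNOT6 shRNA array, and from 0.36 to 0.98 on the other 4. NPB had levels of -0.28 and 1.43 and 1.05 on the CNOT6 shRNA array, and OSCAR 0.12, 1.77 and 1.37. The non-target array was thus highest, with the CNOT6 shRNA array next. PLAAT5, a phospholipase and acyltransferase (3.49-fold), NTRK3, the receptor kinase for neurotrophin-3 (3.11-fold), EEIG2 (2.74-fold) and HYAL4, of the hyaluronidase family (2.60-fold), were higher too, and the interferon-stimulated IFIT1 and IFIT2, described with their list, completed the set. Of the 24 named genes 17 were printed on 1 spot. OSCAR had another member probe, which was not 2-fold higher.

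**Figure D3:**
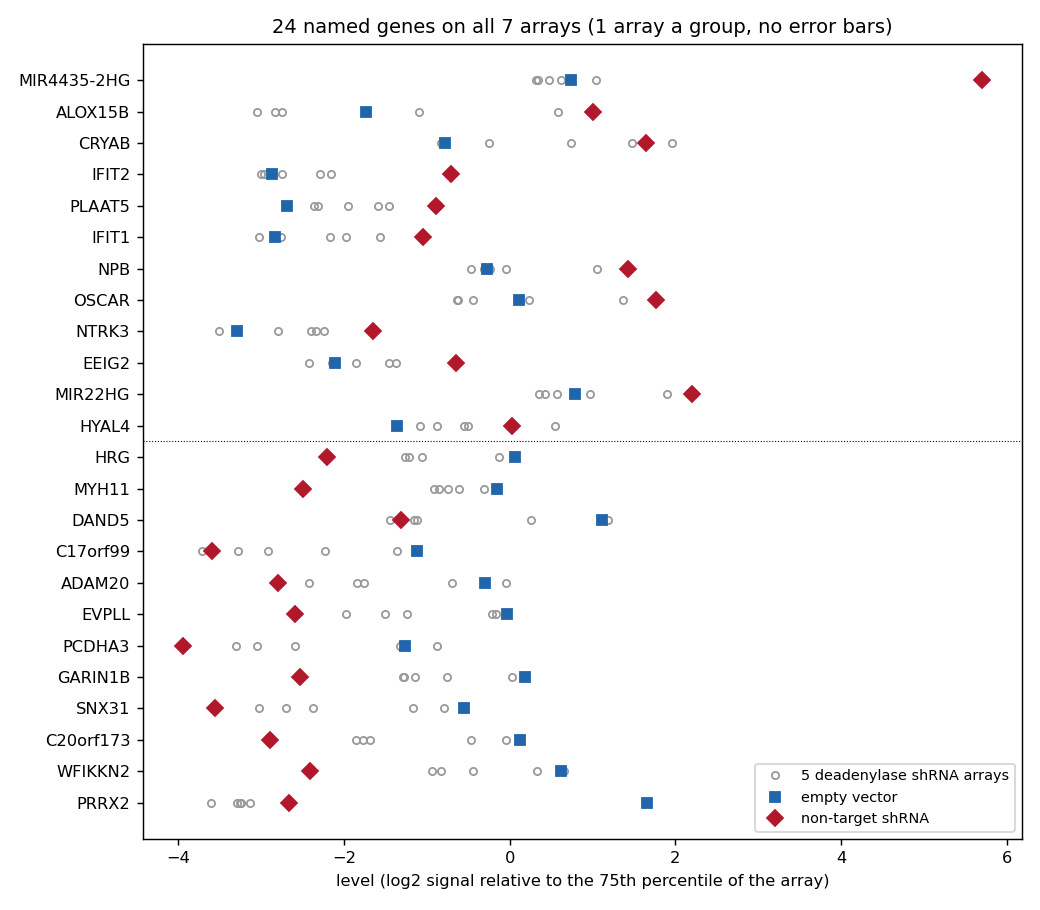
Level (log2 signal relative to the 75th percentile of the array, x axis) of the 12 highest and 12 lowest named genes on the empty-vector array (squares), the non-target array (diamonds) and the 5 deadenylase shRNA arrays (circles). Each mark is 1 array. MIR4435-2HG is high on the non-target array alone, PRRX2 on the empty-vector array alone, and in most of the other genes some of the 5 arrays lie between the controls.

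The genes of RNA interference had nearly equal levels on both arrays. Of 22 genes listed, 21 had a member probe, 0 were past 2-fold in either direction, and their median difference was 0.00 log2 against 0.05 for all 11057 named genes, of which 38 were higher and 203 lower. AGO2, the slicing Argonaute, was measured on 10 spots per array and had levels of 2.28 with the empty vector and 2.24 with the non-target shRNA, with a spot SD of 0.09 and 0.05. DICER1 had levels of 1.07 and 0.79, and the 5 other arrays ranged from 0.72 to 1.15. The lowest differences were those of TNRC6A, a partner of Argonaute, at -0.58, and TSNAX, a subunit of the translin complex, at -0.50. The highest were HSP90AA1, a chaperone that takes part in loading, at 0.41, and the nuclear transport GTPase RAN at 0.35. The deadenylases and CCR4-NOT subunits were equally flat, with 24 genes, 0 past 2-fold and a median of -0.01. CNOT4 was the lowest of them at -0.71, and the anti-proliferative gene BTG3, which binds the deadenylase complex, the highest at 0.47. CNOT2, a core subunit, differed by -0.27 and BTG2 by 0.41. The genes that the other hairpins target differed little between the controls. PARN differed by -0.19, CNOT6 by -0.10 and CNOT7 by 0.08. CNOT6L differed by -0.07 on one probe and 0.24 on the other, and NOCT, whose probe was too dim to be a member, by -0.41. On this dim probe the NOC shRNA array was lowest at -4.96, with the CNOT7 shRNA array at -4.89.

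The sensors of double-stranded RNA and cytosolic nucleic acid held 19 genes, of which 0 were higher and 2 lower at 2-fold, with a median of -0.02. Over all named genes 0.344% were higher and 1.84% lower. DHX58, the regulatory RIG-I-like receptor LGP2, had a level of 1.5 with the empty vector and 0.17 with the non-target shRNA, a 2.50-fold lower signal on 1 spot. All 5 other arrays lay between 1.15 and 1.60, so the non-target array alone was low. CGAS, the cytosolic DNA sensor, had levels of -1.52 and -2.70, and here the CNOT6L, CNOT7 and NOC shRNA arrays were as low, from -2.99 to -2.74. EIF2AK2, which encodes the kinase PKR, differed by -0.32, and IFIH1, which encodes MDA5, by -0.15. RIGI differed by 0.17 and MAVS, the adaptor of both receptors, by 0.33, the highest of the list, ahead of the ubiquitin ligase TRIM25 at 0.24.

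Interferon-stimulated genes stood slightly higher on the non-target array. Of 35 genes with a member probe 3 were 2-fold higher, 0 were lower, and 25 were above 0, with a median of 0.23 log2. Over all named genes, 0.344% were 2-fold higher, 1.84% were lower, 57.6% were above 0 and the median was 0.05. With no scaling the median of the list was -0.26, which was 0.17 above that of all named genes. IFIT2, which binds RNA and restrains translation of viral mRNA, had a level of -2.87 with the empty vector and -0.71 with the non-target shRNA, a 4.46-fold higher signal. Its 2 spots ranged from -2.90 to -2.83 and from -0.74 to -0.68, and the 5 other arrays from -3.0 to -2.15. IFIT1, its partner, had levels of -2.83 and -1.04 (3.44-fold), with the other arrays from -3.02 to -1.57. For both genes the non-target array was the highest of the 7 and the NOC shRNA array came next. On the empty-vector array IFIT1 and IFIT2 were under the limit for members (-2.70). Both were therefore kept through the non-target array, on which they are high. MX1, an antiviral GTPase, had levels of -0.86 and 0.21 (2.10-fold), but was higher still on the NOC shRNA array, at 0.48.

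Further members were higher by less. UBE2L6 and ISG15, the conjugating enzyme and the modifier of ISGylation, differed by 0.64 and 0.61, IFIT5 by 0.60, CMPK2 by 0.60, IFI6 by 0.57 and IRF9, a DNA-binding factor activated by interferon, by 0.54. Each was under 2-fold. STAT2, the partner of IRF9, differed by 0.14. IFITM2 and IFITM3, membrane proteins that block virus entry, went the other way, by -0.98 and -0.92. The level of IFITM3 was -0.65 with the empty vector and -1.56 with the non-target shRNA, -0.70 on the PARN and -1.14 on the CNOT6 shRNA array, and from -1.57 to -1.46 on the CNOT6L, CNOT7 and NOC shRNA arrays. These genes are near-identical copies and their probes may share signal. Among probes too dim to be members, IFIT3 differed by 1.07, OAS1 by 1.33 and the other IFIT2 probe by 1.77. These were picked from the dim probes, and the rest of them are not given. Of 53 listed genes on the array 35 had a member probe. Over all probes above background on both arrays, dim ones included, 0.634% were 2-fold higher.

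**Figure D4:**
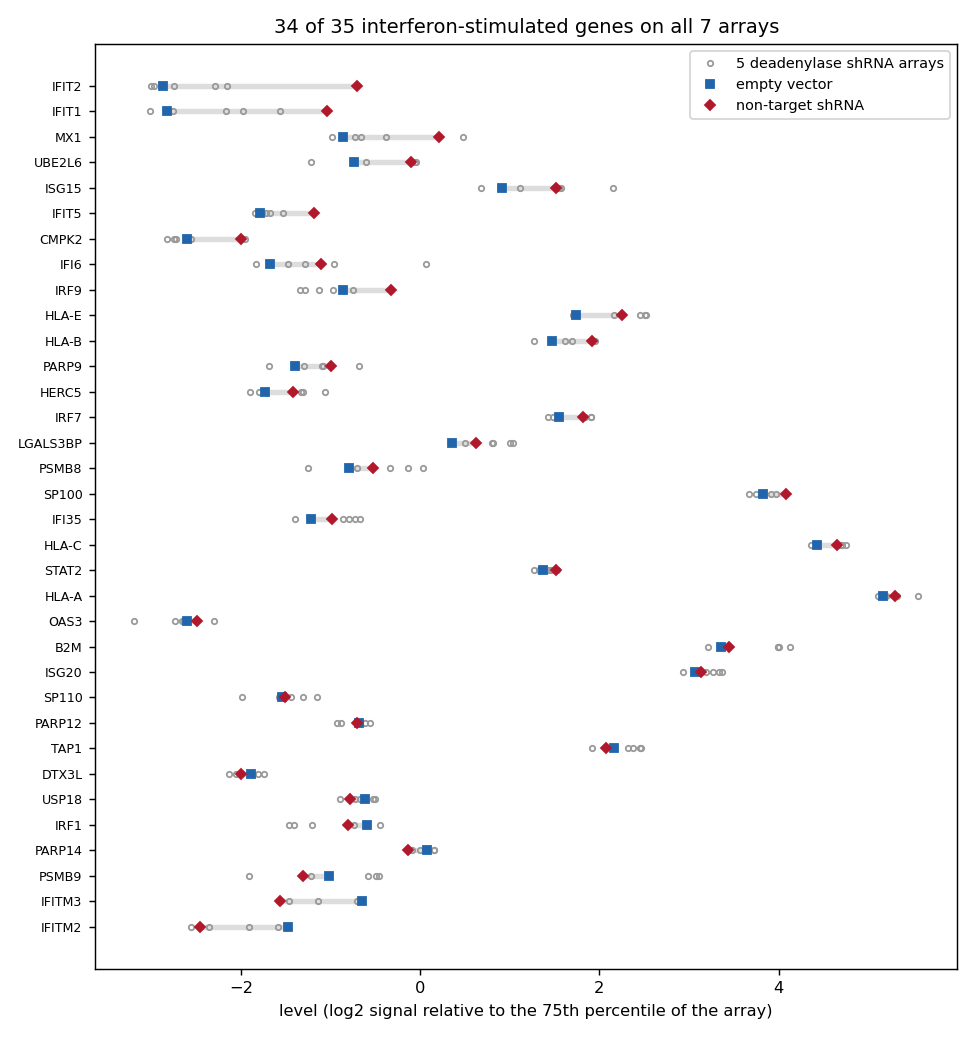
Level (log2 signal relative to the 75th percentile of the array, x axis) of 34 of the 35 interferon-stimulated genes on the empty-vector array (squares), the non-target array (diamonds) and the 5 deadenylase shRNA arrays (circles), ordered by the difference between the controls. IFIT2, IFIT1 and MX1 have the longest bars to the right, and IFITM2 and IFITM3 to the left.

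Inflammatory cytokines and NF-kB targets were lower rather than higher. Of 18 genes 0 were 2-fold higher, 1 was lower and 5 were above 0, with a median of -0.21. Over all named genes these shares were 0.344%, 1.84% and 57.6%. TNF, the cytokine, had levels of 1.30 and -0.29 (3.0-fold lower), each on 2 spots with an SD of 0.11 and 0.10. The 5 other arrays lay between 0.74 and 1.51, so that TNF was low on the non-target array alone. NFKBIZ, a nuclear co-factor of NF-kB, differed by -0.65, while RELA, a subunit of NF-kB itself, differed by 0.40 and NFKBIE, an inhibitor, by 0.27.

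The sarcomere and muscle contraction list had the lowest median, -0.51 log2, with 0 of 18 genes 2-fold higher and 5 lower, against 1.84% of all named genes lower. MYH11, the smooth muscle myosin heavy chain, had a level of -0.16 with the empty vector and -2.50 with the non-target shRNA (5.06-fold lower), and its other probe had -0.75 and -3.35. The 5 other arrays ranged from -0.91 to -0.31 on the first probe. MYBPC3, cardiac myosin-binding protein C, had levels of -0.88 and -3.06, with its spots on the non-target array differing by an SD of 0.41. On that array MYBPC3 and the other MYH11 probe were under the limit for members and were kept through the empty-vector array. ACTG2, smooth muscle gamma-actin, had 0.72 and -1.09, MYH3, the embryonic myosin heavy chain, 1.38 and 0.17, and ACTA1, skeletal muscle actin, 2.37 and 1.20 on 10 spots. For all 5 genes the non-target array was the lowest of the 7, and for MYH11, MYBPC3 and MYH3 the empty-vector array was also the highest. The highest genes of the list were TPM1, a tropomyosin, at 0.39 and the light chain MYL6 at 0.24, and the tropomyosins TPM3 and TPM4 differed by 0.11 and 0.08. Of all myosin heavy chain probes, a group chosen after values were seen, 5 of 9 were lower (3.0% over all members). These included MYH7B at -1.51 and 1 probe of the non-muscle gene MYH14 at -1.49, whose other probe differed by 0.37. Of the other non-muscle genes, MYH10 differed by -0.10 and MYH9 by 0.18 and 0.02 on its probes.

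The sterol, antioxidant and ribosomal protein genes lay slightly higher on the non-target array, with 0 of them past 2-fold. Over all named genes 0.344% were 2-fold higher and 1.84% lower. Of 24 genes of cholesterol synthesis 19 were above 0, with a median of 0.30. MSMO1, a sterol oxidase, had levels of -1.76 and -0.92 on 10 spots per array, with spot SDs of 0.08 and 0.06. SQLE, squalene epoxidase, had 2.07 and 2.84. For MSMO1 the CNOT6L, CNOT7 and NOC shRNA arrays were higher than the non-target array, from -0.40 to -0.17, and the PARN and CNOT6 shRNA arrays were at -1.84 and -2.25. The lowest genes, PMVK and SREBF2, differed by -0.13 and -0.09. Of 38 NRF2 targets 33 were above 0, with a median of 0.22. HMOX1, heme oxygenase, had levels of 2.39 and 3.0, and NQO1, a quinone reductase, -0.40 and 0.19. GCLM, the regulatory subunit of glutathione synthesis, was lower, at 3.65 and 2.84, and the cystine transporter SLC7A11 differed by -0.23. Of 79 cytosolic ribosomal protein genes 67 were above 0, with a median of 0.17, from RPL27A and RPL36 at -0.26 each to RPS27 and RPS2 at 0.48 and 0.49. With no scaling the medians of the 3 lists were -0.19, -0.27 and -0.32, which remained above the -0.44 of all named genes, and with quantile normalization of the 7 arrays that of the NRF2 targets was 0.14 and that of the ribosomal proteins -0.03.

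The remaining lists held no gene past 2-fold, apart from the nuclear noncoding RNAs, and their medians lay between -0.05 and 0.13 log2. Over all named genes 0.344% were 2-fold higher and 1.84% lower. At that share a list of this size would hold few or none. Among 39 genes of the integrated stress and unfolded protein response (median 0.09), the transcription factor ATF5 was lowest at -0.65 and the secreted STC2 next at -0.45, while the chaperone DNAJB9 was highest at 0.46 and DDIT3, which encodes the stress factor CHOP, next at 0.33. Among 22 p53 targets (median 0.13) the anti-proliferative BTG2 and the stress protein SESN1 were highest at 0.41 and 0.36, and TRIAP1 and CCNG1 lowest at -0.17 and -0.12. Among 28 immediate early genes (median 0.05) the factors SRF and JUNB were highest at 0.49 and 0.44, and ZFP36L2 and FOSB lowest at -0.45 and -0.35. Each of these lists held genes on both sides of 0 and none past 2-fold. Among 31 heat shock proteins and chaperones (median 0.08) HSPA1B and HSPA1A, inducible HSP70 genes that are near-identical copies, were highest at 0.63 and 0.45, and DNAJA1 and CCT5 lowest at -0.34 and -0.23. Among 16 metallothioneins and zinc genes (median 0.09) MTF1, the zinc-sensing factor, was lowest at -0.83 and MT1G next at -0.42, and MT1F and MT1B, which resemble other metallothioneins, were highest at 0.25 and 0.21.

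Genes of growth and metabolism were as close. The median was 0.02 for 46 genes of the G2 and M phases, with the kinase NEK2 and the kinetochore protein NUF2 lowest at -0.54 and -0.36 and the cyclin CCNF and CKAP2 highest at 0.41 and 0.35. It was -0.01 for 49 S phase genes, from POLA1 and GINS2 at -0.29 and -0.28 to the polymerase subunit POLE2 and the reductase RRM2 at 0.41 and 0.38. For 53 replication-dependent histones, many of them near-identical, it was 0.02, from H2AC20 and H2BC7 at -0.43 and -0.38 to H4C11 and H4C8 at 0.42 and 0.31. Each of these 3 lists held genes on both sides of 0, and none past 2-fold (0.344% higher and 1.84% lower over all named genes). For 76 genes of the respiratory chain it was 0.03, from COX7C and NDUFS4 at -0.47 and -0.26 to CYCS, cytochrome c, at 0.47. For 29 genes of glycolysis and hypoxia it was 0.13, from NDRG1 and PFKFB3 at -0.54 and -0.48 to the glycolytic enzymes PGK1 and PFKL at 0.59 and 0.54. For 22 genes of the squamous lineage it was -0.05, from KRT15 and PERP at -0.68 and -0.55 to SPRR1A and KRT7 at 0.50 and 0.36. For 11 multidrug ABC transporters it was 0.07, from TAP2 and ABCB8 at -0.22 and -0.12 to ABCC6 and ABCB10 at 0.49 and 0.25.

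Nuclear noncoding RNAs held exceptions in both directions. Among 19 snoRNA hosts and nuclear long noncoding RNAs (median 0.08) 1 gene was higher, MIR22HG, and 1 was lower (0.344% and 1.84% over all named genes). The lower one, KCNQ1OT1, the antisense transcript of the KCNQ1 locus, had levels of -1.57 and -3.48, each on 2 spots. On the non-target array it was under the limit for members, and it was kept through the empty-vector array. SNHG7 followed on the higher side at 0.40 and DANCR on the lower at -0.30.

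**Figure D5:**
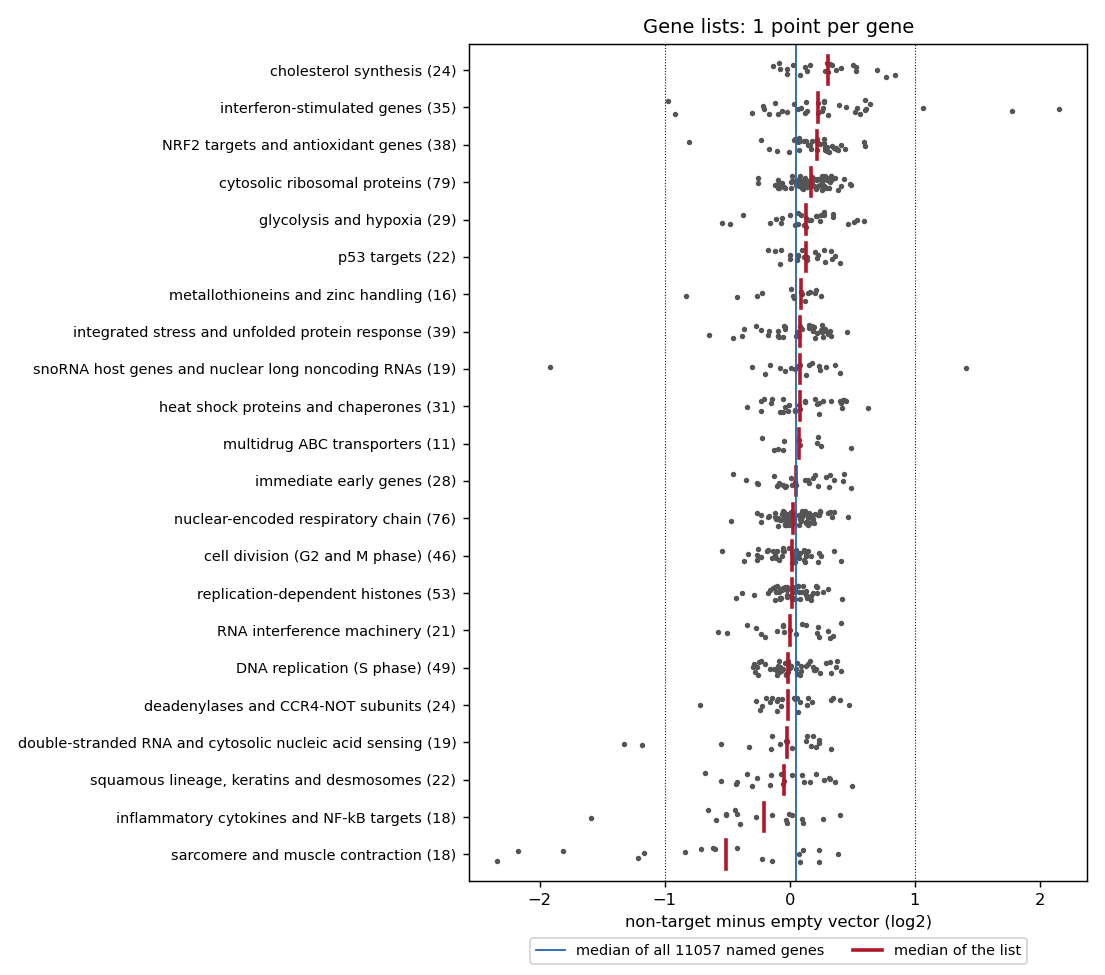
Difference between the non-target and the empty-vector array (log2, x axis) for each gene of 22 lists, 1 point per gene and with the number of genes in brackets. Bars mark the list medians, the line the median of all 11057 named genes and dotted lines 2-fold. Cholesterol synthesis and interferon-stimulated genes have the highest medians (0.30 and 0.23) and the muscle list the lowest (-0.51).

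The lower probes were unevenly spread over kinds of transcript. Among the 13595 members for a RefSeq mRNA 1.51% were 2-fold lower, among the 1540 for a long intergenic noncoding RNA 9.55% and among the 507 for a RefSeq noncoding RNA 7.5%. Dim probes were lower more often, with 5.79%, 3.83%, 1.57% and 0.807% in 4 equal bins of signal from dim to bright. In the dimmest bin the shares were 3.38% for mRNA and 9.88% for intergenic RNA. In the bins between they were 1.88% and 13.8%, then 0.798% and 5.88%. In the brightest bin they were 0.509% and 0.741%, the latter 1 of 135 probes, so that mRNA and intergenic RNA lay close in that bin alone. The share there was 2.06% for RefSeq noncoding RNA and 4.82% for Ensembl transcripts. Intergenic RNA was also 2-fold higher more often than mRNA, at 1.17% against 0.272% of members. Of 7 members whose symbols mark intronic transcripts, a group chosen after values were seen, 6 were lower (3.0% over all members), with a median of -1.51. SND1-IT1 had levels of -1.43 and -3.48, and ANP32A-IT1, the brightest of them, 4.22 and 3.20. On the non-target array SND1-IT1, RUNX1-IT1 (-3.27) and ERC2-IT1 (-3.26) were under the limit for members. These were kept through the empty-vector array, so the choice of members took part in the count. Other groups formed by symbol were less often lower than the intronic transcripts. Of 60 antisense members 4 were lower (median -0.15), and of 18 small nucleolar and Cajal body RNAs 1 (median -0.17). Both shares were above the 3.0% over all members, on few probes. Of 408 zinc finger members 2 were lower (median -0.05), a share under that of all members. The 6 ribosomal RNA probes, also chosen after values were seen, were all above 0, 2 of them past 2-fold (0.473% over all members), with a median of 0.75. With quantile normalization of the 7 arrays they ranged from 0.05 to 1.37, and with no scaling from -0.36 to 0.84, with 2 below 0 and 0 past 2-fold. The part of ribosomal and unspliced RNA in the other differences was not tested.

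The hairpin was then examined across all 6 hairpin arrays (non-target and 5 deadenylase shRNAs), since the empty-vector array is the only one without it. In limma's moderated test, with the lone empty-vector array assumed to vary like the hairpin arrays, 9 of 38090 probes (0.0236%) were lower on the hairpin arrays at a Benjamini-Hochberg adjusted p under 0.05. No probe was called in the other direction. Of the 17344 members 5 were called, each of them printed on 1 spot and high on the empty-vector array alone. That array also entered the choice of members, and 2 of the 5, TMEM18 and A_33_P3278200, were under the limit for members on the non-target array and were kept through it. The calls thus describe 1 array against 6 and have no replicate on its side. PRRX2, a homeobox factor of the mesenchyme, had a level of 1.66 with the empty vector, -2.66 with the non-target shRNA and from -3.60 to -3.13 on the others (hairpin minus empty -4.85, SE 0.30, limma adjusted p = 0.000269). RHPN2 had 4.41 on the empty-vector array and from -0.67 to -0.46 on the 6 others (-4.98, SE 0.16, limma adjusted p = 1.81e-06).

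The other RHPN2 probe gave a different picture. It had 2.76 with the empty vector, 3.02 with the non-target shRNA and from 2.94 to 3.38 on the rest, so the 2 probes of the gene disagree in direction. TMEM18, a nuclear membrane protein, repeated this, with 0.86 for the empty vector against -2.95 to -2.83 elsewhere on the called probe (-3.75, SE 0.18, limma adjusted p = 3.41e-05), and 0.00 against 0.25 on the non-target array for its other probe. With normexp background correction the difference between the controls on the called TMEM18 probe went from -3.70 to -0.23, and 4 members were called in place of 5. The called probes that had no symbol were A_33_P3278200, with 4.65 with the empty vector and -3.71 with the non-target shRNA, and A_19_P00803170, with 4.26 and -1.11. No second probe was there to compare for these or for PRRX2. None of the interferon-stimulated genes was called, and IFIT1 (0.74, SE 0.61) and IFIT2 (0.56, SE 0.70) each had a limma adjusted p of 0.907 or more over the 6 hairpin arrays.

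The state of the arrays and the markers of cell type are given for reference. Above background were 91.5% of all gene probes with the empty vector, 82.0% with the non-target shRNA and from 82.9% to 88.0% in the others, and the 75th percentile of signal was 3251 and 2315 and from 1366 to 3986. The epithelial markers EPCAM, CDH1, KRT8, KRT18 and KRT19 were above background on both arrays. Of 12 squamous markers 11 were above background with the empty vector and 7 with the non-target shRNA, where the defining genes TP63, KRT5 and KRT14 were not. They were also dim on the empty-vector array, from -7.56 to -6.41, and the squamous markers bright enough to be members were SOX2, KRT15, TRIM29, KRT6A and PERP. Of 3 adenocarcinoma markers, 3 were above background with the empty vector and 2 with the non-target shRNA. Among them NKX2-1, the lung lineage factor, was a member at -0.74 and -0.53, brighter than TRIM29 at -1.29 and -1.62, while NAPSA and SFTPB were at -3.57 or lower on both controls. All 4 leukocyte markers were above background, with a summed level of 3.85 with the empty vector, 2.94 with the non-target shRNA and from 3.75 to 3.89 on the others, nearly all of it from CD14. The 3 endothelial markers were dim, at -2.16 and -3.18 summed. Whether other cells or RNA quality took part in the lower probes was not tested. In RNA of whole cultures, fewer cells that express a gene and less RNA of it per cell cannot be told apart.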

How the data were processed

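Cy3-labelled RNA of NCI-H520 cells was hybridised to single-colour Agilent arrays, 1 per group as titled. Per the file headers, the intensity of each spot was extracted by the authors with Feature Extraction 10.7.3.1, and its processed signal is already background-corrected. The authors also deposited log2 values, centred per probe on the median of the 7 arrays, whose scaling is not given in the sources used here.

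From log2 processed signal the 75th percentile of each array was subtracted, control and outlier spots were left out (outliers were kept where a probe had no other spot), and the spots of a probe were averaged. A probe was above background when at least 50% of its spots were. No spot was saturated. Symbols followed RefSeq accessions (GRCh38.p14), for names only, with that of the labels for CNOT6. A gene was represented by its brightest member probe.

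Between the controls there is no test, and differences were read at 2-fold. The 6 hairpin arrays were set against the empty-vector array by limma 3.58.1 in R 4.3.3 (lmFit, eBayes with a trend, two-sided, Benjamini-Hochberg), using each probe above background on 2 or more arrays. The steps were tested on simulated data. There the empty-vector array was given the spread of the hairpin arrays in the limma fit, so that assumption was not tested. The spread in the fit is that between hairpins, and may be technical.

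Named genes were the 12 highest and 12 lowest past 2-fold by their smallest difference under the percentile, quantile and normexp settings (normexp on median spot signal, with an offset of 50), leaving out symbols starting LOC, genes with probes of opposite sign and probes with overlapping spots, and the 2 highest and 2 lowest of each list. Some of these genes are not reported here. Further genes of a list and the called probes were chosen after values were seen. The comparison, the members and the lists were chosen with earlier results of these data known.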

Additional observations from a re-analysis of the deposited data

How the results depend on the processing

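At a 4-fold threshold 13 probes were higher and 50 lower on the non-target array, at 1.5-fold 612 and 1320, with no scaling 29 and 1590, with the dim probes included 220 and 3875, and in the brightest bin of the probes above background 28 and 103. Both counts stayed within 1.5 times their values of 82 and 520 under the other 7 alternatives, which were both quantile normalizations, centring, normexp, the series table, outlier spots kept and every spot above background. With the dim probes included the lower probes outnumbered the higher under each scaling, but by how much depended on it, with 1035 higher and 1498 lower by quantile normalization of the 7 arrays and 147 and 914 by normexp. No scaling moved each gene and list by more than the printing spread, and the median of the interferon-stimulated genes to -0.264. It kept the sign of each named gene that was past 2-fold, as did the other alternatives. For the 24 highest and lowest named genes, the sign under normexp and quantile normalization of the 7 arrays was fixed by their choice. In the comparison of the hairpin arrays with the empty vector, 5 probes were called in slide row 1 only, in place of 9, and from 7 to 13 under the other alternatives, without the non-target array 10. The order counts, recomputed with quantile and normexp values after the data were seen, moved by less than 1.5 times. No paired analysis was possible because the titles give every group the single replicate number 1. No array could be left out on either side of the comparison of the controls.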
